A study of Mus musculus with 4 samples.

Results

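The genes described here encode the replicative helicase, its loader, the sliding clamp and enzymes of deoxynucleotide supply. They are Mcm2, Mcm3, Mcm4, Mcm5, Mcm6, Mcm7, Cdc6, Pcna, Rrm2 and Tyms. They were taken by symbol from the expression tables and from the gene column of the exon junction tables. These 10 genes are among 22730 gene symbols measured, and all 10 passed the filter on low counts that left 13733 genes for testing. RNA came from total thymocytes, the developing T cells of the thymus, of 2 mice lacking hnRNP L (KO) and 2 wild-type (WT) mice, with 1 library per mouse. hnRNP L is an RNA-binding protein that regulates splicing. All 4 mice carry the same labelled mixed background, which lists C57BL/6, LckCre transgenic, CD45.1 and the reporter Gt(ROSA)26Sortm4(ACTB-tdTomato,-EGFP)Luo. The Lck promoter drives Cre in developing T cells; the sources used here do not say which of the mice carried Cre, how old they were or which exons of Hnrnpl were deleted. The study's title names proliferation of pre-T cells among the processes regulated by hnRNP L, and the comparison of KO with WT mice asks whether transcripts of the DNA replication machinery differed.

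Before a cell copies its DNA, the origin recognition complex and Cdc6 load rings of Mcm2 to Mcm7 onto chromatin, a step called licensing. In S phase the loaded rings become the helicase that unwinds the double strand, and Pcna, the sliding clamp, holds the polymerases on the template. Rrm2, a subunit of ribonucleotide reductase, and Tyms, thymidylate synthase, supply deoxynucleotides. In the thymus, dividing cells are concentrated at the double-negative stage and in the blasts that follow it, while most double-positive and mature thymocytes rest. Transcription of these genes is known to be switched on by E2F factors when a cell commits to S phase.

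Gene reads numbered 27548708 and 28677506 in KO replicates 1 and 2 and 41775795 and 51544714 in WT replicates 1 and 2. Values are CPM, read counts scaled to library size with TMM factors. Hnrnpl itself was measured at 467 and 208 CPM in KO replicates 1 and 2, against 854 and 813 CPM in WT replicates 1 and 2, so the KO libraries held 56.0% and 25.0% of the WT mean. Ddx3y, on the Y chromosome, had 4116 reads in KO replicate 1 and 1 read in KO replicate 2, against 17 and 1 reads in WT replicates 1 and 2, so by these reads KO replicate 1 alone was male. Small RNA and host genes took 2.13% and 1.13% of gene reads in KO replicates 1 and 2, against 8.21% and 1.44% in WT replicates 1 and 2. With 2 libraries per group, 1 gene of 13733 passed an adjusted p of 0.05 in edgeR's quasi-likelihood test (0.00728%), and 1360 genes (9.9%) had an unadjusted p below 0.05.

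The promoters of several of the genes hold the E2F word, shown here because it is the classic feature of this gene group and was read from sequence alone. Of the 10 genes, 9 have an entry in the RefSeq promoter table (GRCm38.p6), with 300 bases from 250 before to 50 after the start; Mcm4 was not used here. The words TTTCCCGC, TTTGGCGC, TTTCGCGC and TTTGCCGC were searched on both strands, and overlapping matches were merged. At least 1 match occurs in Mcm3, Mcm5, Mcm6, Mcm7 and Cdc6, or 5 of 10 member promoters (Mcm7 has more than 1), and in 2.26% of all 32851 promoters of the table. The CCAAT word occurs in 8 of the 10 member promoters and in 37.4% of all. Capitals mark the E2F words in these stretches of the Mcm3 promoter (minus strand, chr1:20820267-20820293), the Mcm5 promoter (plus strand, chr8:75109259-75109458) and the Mcm6 promoter (minus strand, chr1:128359706-128359955).
Mcm3: GCGGGAAAacttgggaagtTTTGGCGC
Mcm5: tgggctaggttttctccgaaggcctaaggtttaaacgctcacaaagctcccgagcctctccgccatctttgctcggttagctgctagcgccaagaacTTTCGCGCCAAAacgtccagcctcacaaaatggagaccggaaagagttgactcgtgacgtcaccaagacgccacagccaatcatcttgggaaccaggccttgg
Mcm6: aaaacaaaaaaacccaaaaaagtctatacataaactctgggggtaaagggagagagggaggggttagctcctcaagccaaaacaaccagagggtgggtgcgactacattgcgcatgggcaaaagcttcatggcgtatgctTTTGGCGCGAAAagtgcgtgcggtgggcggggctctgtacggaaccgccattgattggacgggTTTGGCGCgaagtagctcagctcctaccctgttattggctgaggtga
In Mcm3 both matches lie after the annotated start, with first bases at +20 and +39. The Mcm5 match begins 153 bases before the start, and there 2 words overlap. In Mcm6 the matches begin 110 and 47 bases before it, the first of them again an overlap of 2 words. A match is a description of these letters, not of binding.

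None of the 10 genes differed between KO and WT libraries past the threshold in edgeR's test, and none had an unadjusted p below 0.05. Adjusted p-values in that test ran between 0.515 and 0.981. DESeq2 and limma-voom also called none of the 10, where DESeq2 called 113 of all genes (0.823%). In neither of these did any of the 10 have an unadjusted p below 0.05. Fold changes were positive for 7 of the 10 genes, and their median was 0.08 on the log2 scale; 51.1% of all genes tested were positive, with a median of 0.01. Both KO libraries lay above both WT libraries for 2 genes, Mcm4 and Rrm2, as for 3195 genes in all (23.3%), and the groups overlapped for the other 8. No member lay below both WT libraries in both KO libraries, as 21.4% of all genes did. Standard errors of the log2 fold changes were 0.13 to 0.24, and the 95% intervals together reached from -0.36 to 0.95.

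Mcm4 is a catalytic subunit of the helicase and had the smallest p of the 10. Mcm4 (NM_008565, mm9 chromosome 16, 15623990 to 15637493, minus strand) had 203 and 267 CPM in KO replicates 1 and 2, against 181 and 194 CPM in WT replicates 1 and 2. Both KO libraries lay above both WT libraries, KO replicate 1 by little. The means were 235 ± 45.4 CPM in KO and 187 ± 9.52 CPM in WT (SD, n = 2 each), and the log2 fold change was 0.33 (SE 0.15, 95% interval -0.03 to 0.69, edgeR adjusted p = 0.515).

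Mcm6, a subunit of the same ring, had the largest SE of the 10. Mcm6 (NM_008567, mm9 chromosome 1, 130228168 to 130256233, minus strand) had 385 and 550 CPM in KO replicates 1 and 2, against 289 and 425 CPM in WT replicates 1 and 2. KO replicate 1 fell between the WT libraries, and WT replicate 2 stood 0.56 above WT replicate 1 on the log2 scale. That is a larger gap than between the group means: the log2 fold change was 0.39 with an SE of 0.24 (95% interval -0.18 to 0.95, edgeR adjusted p = 0.584). It was 0.14 without WT replicate 1 and 0.70 without WT replicate 2.

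The remaining helicase subunits had nearly equal group means. Mcm2 (NM_008564, mm9 chromosome 6, 88833468 to 88848774, minus strand) had 402 and 464 CPM in KO replicates 1 and 2 and 435 and 449 CPM in WT replicates 1 and 2. Mcm5 (NM_008566, mm9 chromosome 8, 77633427 to 77652338, plus strand) had 412 and 469 CPM in the KO and 463 and 432 CPM in the WT libraries. In both genes the WT values lay inside the KO range, and the log2 fold changes were -0.03 for Mcm2 (95% interval -0.35 to 0.29) and -0.02 for Mcm5 (95% interval -0.34 to 0.29). Mcm3 (NM_008563, mm9 chromosome 1, 20793095 to 20810294, minus strand) had 127 and 167 CPM in the KO and 139.9 and 126 CPM in the WT libraries, a log2 fold change of 0.14 (95% interval -0.22 to 0.50). Mcm7 (NM_008568, mm9 chromosome 5, 138605817 to 138613090, minus strand) had 204.1 and 242 CPM in the KO and 215 and 210.4 CPM in the WT libraries, a log2 fold change of 0.07 (95% interval -0.23 to 0.37).

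Cdc6, the loader of the ring, gave the lowest level per length of the 10. Cdc6 (NM_001025779, mm9 chromosome 11, 98769203 to 98785256, plus strand) had 83.1 and 104 CPM in KO replicates 1 and 2, against 96.0 and 79.6 CPM in WT replicates 1 and 2. The groups interleaved, with a log2 fold change of 0.09 (95% interval -0.26 to 0.44, edgeR adjusted p = 0.839). Pcna (NM_011045, mm9 chromosome 2, 132075022 to 132078916, minus strand) had 144 and 185 CPM in the KO and 169 and 163 CPM in the WT libraries. Its WT values lay inside the KO range, and the log2 fold change was -0.01 (95% interval -0.35 to 0.32, edgeR adjusted p = 0.981).

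Of the enzymes of deoxynucleotide supply, Rrm2 was the one whose groups did not overlap. Rrm2 (NM_009104, mm9 chromosome 12, 25393119 to 25399011, plus strand) had 284 and 365 CPM in KO replicates 1 and 2, against 269 and 266 CPM in WT replicates 1 and 2. The WT libraries were nearly equal and the KO libraries stood above them by unequal amounts, with a log2 fold change of 0.28 (SE 0.15, 95% interval -0.07 to 0.62, edgeR adjusted p = 0.544). Tyms (NM_021288, mm9 chromosome 5, 30384740 to 30400165, minus strand) had 75.4 and 109 CPM in the KO and 88.2 and 90.3 CPM in the WT libraries. KO replicate 1 was the lowest and KO replicate 2 the highest library for Tyms, and the log2 fold change was 0.05 (95% interval -0.36 to 0.46, edgeR adjusted p = 0.928). A processed copy, Tyms-ps, is listed with 130 and 168 reads in the KO and 167 and 250 reads in the WT libraries; how reads shared with such copies were counted is not stated, so the values of Tyms, and of other members with near-identical copies, are uncertain to that extent.

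**Figure D1:**
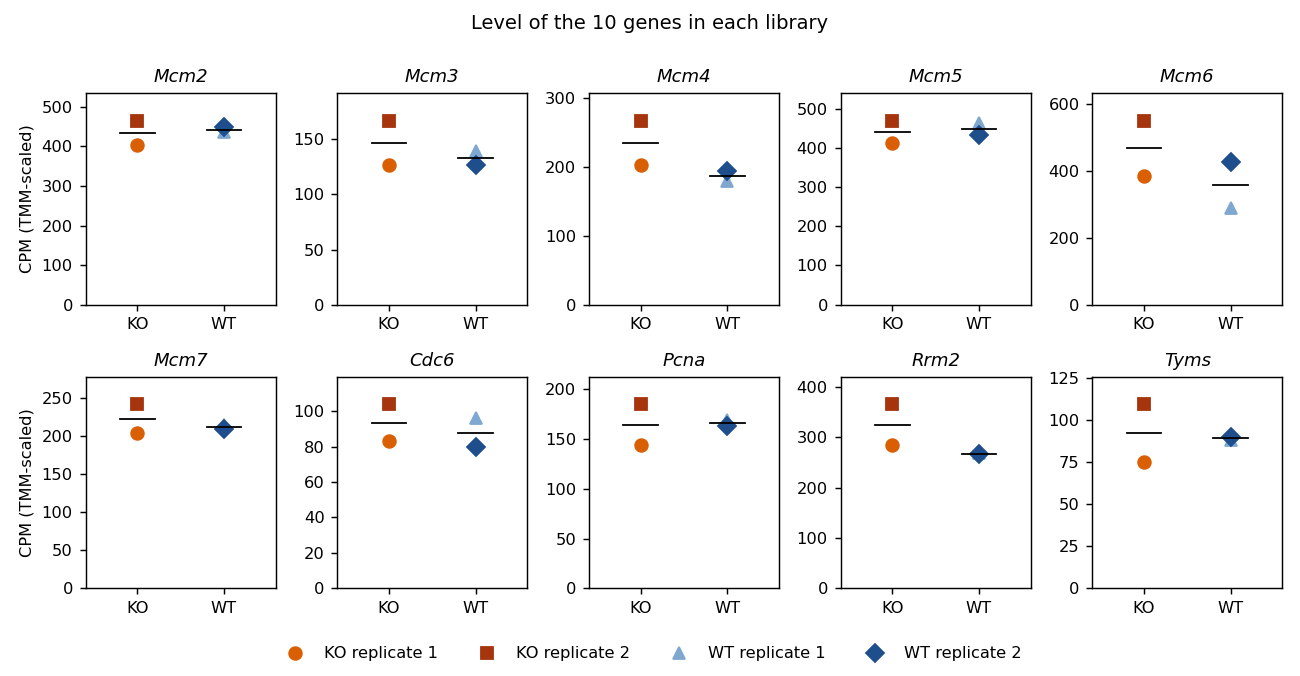
TMM-scaled CPM (y axis, from 0 in each panel) of each of the 10 genes in the 2 KO and 2 WT libraries (x axis); points are libraries and horizontal lines group means. KO replicate 2 is the highest point in all 10 panels, and only in Mcm4 and Rrm2 do both KO points lie above both WT points.

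In each of the 10 genes the KO mice differed from each other by more than the group means did. All 10 genes were higher in KO replicate 2 than in KO replicate 1, by 0.19 (Mcm5) to 0.54 (Tyms) on the log2 scale, with a median of 0.36; among all genes tested 49.1% were higher, with a median of -0.01. KO replicate 2 exceeded both WT libraries for all 10 genes, against 42.2% of all genes tested. It was thus also the highest of the 4 libraries for all 10, a share that was not counted over all genes. KO replicate 1 lay below both WT libraries for 5 of the 10 (Mcm2, Mcm5, Mcm7, Pcna and Tyms). How many of all genes did so was not counted, so nothing is read from that number. As a share of the WT mean, the genes stood at 104.8% (Mcm5) to 154% (Mcm6) in KO replicate 2 and at 84.5% (Tyms) to 108% (Mcm4) in KO replicate 1. Between the WT libraries 4 of the 10 genes were higher in replicate 2, with a median of -0.02.

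Set against the WT libraries without KO replicate 1, the genes had a median log2 fold change of 0.26, and without KO replicate 2 a median of -0.07. With KO replicate 2 alone, Mcm4 had a log2 fold change of 0.51 (edgeR adjusted p = 0.066), Rrm2 0.44 (edgeR adjusted p = 0.080) and Mcm6 0.62 (edgeR adjusted p = 0.290). None of the 10 passed the threshold, whereas 427 genes did so across the table (2.96%). With KO replicate 1 alone, Mcm4 had 0.12, Rrm2 0.09 and Mcm6 0.11, and 7 of the 10 genes had a negative fold change; 13 genes of the table passed the threshold (0.0914%), none of them a member. These fits assume that the lone KO library varies like the WT libraries, so only their fold changes are given.

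**Figure D2:**
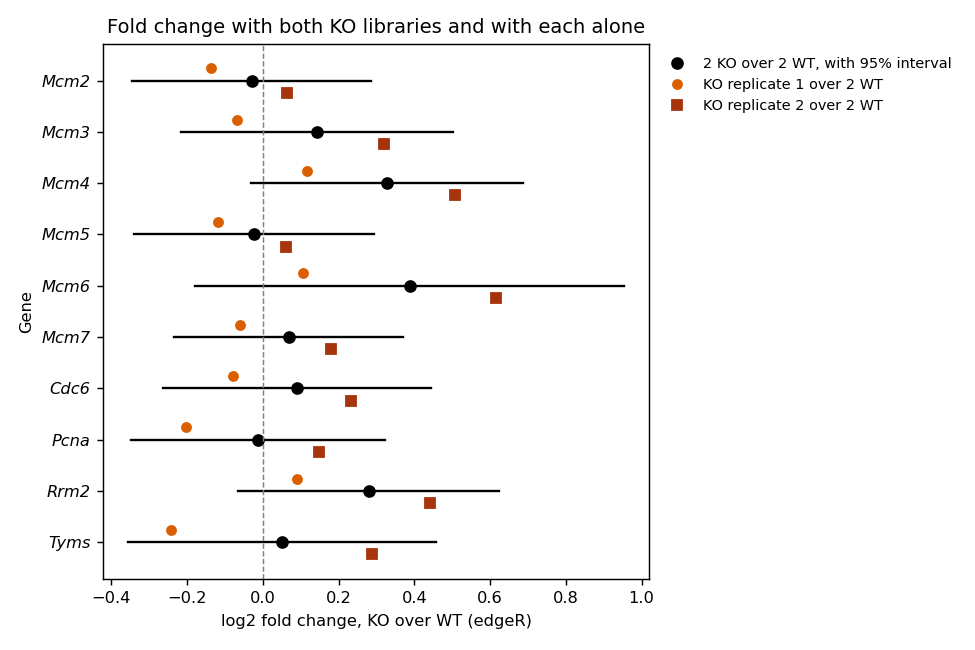
Log2 fold change, KO over WT, from edgeR (x axis) for each gene (y axis): black points with 95% intervals use both KO libraries, orange circles KO replicate 1 alone and brown squares KO replicate 2 alone. Every interval spans 0, and in every gene the square lies to the right of the circle.

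Markers of thymocyte stages also differed between the KO mice. The 11 markers of double-positive cells summed to 13942 CPM in KO replicate 2 and 18146 CPM in KO replicate 1, against 17709 and 17437 CPM in WT replicates 1 and 2. Rag1 alone held 5529 and 7685 CPM of the sums in KO replicates 2 and 1. Only 1 of the 11, Rag2, had more in KO replicate 2 than in the other KO library. Rag2 had 491 and 570 CPM in KO replicates 1 and 2, against 340 and 335 CPM in WT replicates 1 and 2 (edgeR adjusted p = 0.377). The 10 markers of mature thymocytes summed to 945 CPM in KO replicate 2 and 1531 CPM in KO replicate 1, against 1545 and 1500.1 CPM in the WT libraries, and all 10 had less in KO replicate 2 than in the other KO library. The 12 double-negative markers summed to 1109 CPM in KO replicate 2 and 729 CPM in KO replicate 1. Their sums were 760.0 and 959 CPM in WT replicates 1 and 2. Notch1 alone had 554 and 325 CPM in KO replicates 2 and 1. Of the 12, 8 had more in KO replicate 2 than in the other KO library. Between the WT mice, 8 of 12 likewise had more in replicate 2 than in replicate 1. Thymic epithelial markers (8) summed to 174 and 64.0 CPM in KO replicates 2 and 1, against 95.8 and 74.4 CPM in the WT libraries. Of the erythroid markers, 11 were found and 10 were tested. The 11 summed to 124 and 593 CPM in KO replicates 2 and 1, against 180 and 167 CPM in the WT libraries. The 2 alpha-globin entries had identical values in each library, and both entered that sum. B cell markers (8) summed to 46.6 and 52.6 CPM in KO replicates 2 and 1 and to 45.1 and 46.6 CPM in the WT libraries, and myeloid markers (8) to 200.9 and 211 CPM in KO replicates 2 and 1 and to 198 and 179 CPM in the WT libraries. No tested marker of these lists was at 0 reads in any library. In RNA of mixed cells, fewer cells of a type and less RNA per cell cannot be told apart, and the part of cell composition, sex or Hnrnpl level in the split between the KO mice was not tested.

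Of the most abundant markers, Notch1, the receptor that commits cells to the T lineage, had 325 and 554 CPM in KO replicates 1 and 2 and 296 and 413 CPM in WT replicates 1 and 2, while Gfi1, also on the double-negative list, had 147 and 112 CPM in the KO and 160 and 152 CPM in the WT libraries. Rag1, which cuts receptor genes for rearrangement, had 7685 and 5529 CPM in the KO and 7811 and 7402 CPM in the WT libraries. Dntt, which adds bases at receptor gene joints, had 2137 and 1792 CPM in the KO and 2271 and 1997 CPM in the WT libraries. Gimap6, on the mature list, had 405 and 238 CPM in the KO and 417 and 363 CPM in the WT libraries. H2-K1, a class I histocompatibility gene, had 271 and 161 CPM in the KO and 347 and 310.0 CPM in the WT libraries. Of the epithelial markers, Prss16 had 25.2 and 78.9 CPM in the KO and 42.7 and 32.0 CPM in the WT libraries, and Ccl25 had 14.7 and 45.1 CPM in the KO and 23.5 and 18.4 CPM in the WT libraries. The globin gene Hbb-b2 had 174 and 33.6 CPM in the KO and 59.5 and 50.6 CPM in the WT libraries, and its near copy Hbb-b1 had 162 and 30.9 CPM in the KO and 57.7 and 46.7 CPM in the WT libraries. None of these genes passed the threshold in edgeR's test.

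Levels were compared between the genes as CPM per kilobase of transcript, averaged over the 4 libraries. Mcm6 had a mean level of 142 with a range of 99.7 to 189.6, Rrm2 136, Pcna 131, Mcm2 129.9 and Mcm5 129.7, and the ranges of these 5 overlapped from one to the next. Mcm7 followed with a level of 90.9 (85.2 to 101), below the range of Mcm5 and above that of Mcm4, though its highest library passed the lowest of Mcm6. Mcm4 had a level of 58.9 and Mcm3 of 48.5, with overlapping ranges. Tyms and Cdc6 had the lowest levels, 23.9 and 19.99, also overlapping each other and below all the others. The Mcm6 level exceeded that of 97.3% of the genes tested, and the Cdc6 level that of 67.0%. These levels rest on the annotated length of the transcript kept, such as 3798 bases for Tyms and 4532 for Cdc6. Use of other transcript ends was not tested. Reads over known exon junctions numbered 2966 over 6 introns in Tyms, 2099 over 11 in Cdc6 and 4158 over 16 in Mcm3. Per intron, Tyms thus exceeded Mcm3, unlike in level per kilobase.

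The helicase holds its 6 subunits in equal number, but their transcripts were not at equal levels. The highest Mcm level per kilobase was 3.01 and 3.28 times the lowest in KO replicates 1 and 2, and 2.79 and 3.35 times in WT replicates 1 and 2. Summed over the 6 genes, the level was 558 and 698 CPM per kilobase in the KO and 553 and 592 in the WT libraries, with KO replicate 2 the highest. Mcm6 made up 23.8% and 27.2% of that sum in KO replicates 1 and 2, against 18.0% and 24.8% in WT replicates 1 and 2, so the low WT value came from 1 library. Mcm3, the least abundant, made up 7.88% and 8.29% of the sum in the KO and 8.77% and 7.39% in the WT libraries. Mcm4 made up 10.1% and 10.7% in the KO and 9.11% and 9.14% in the WT libraries.

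**Figure D3:**
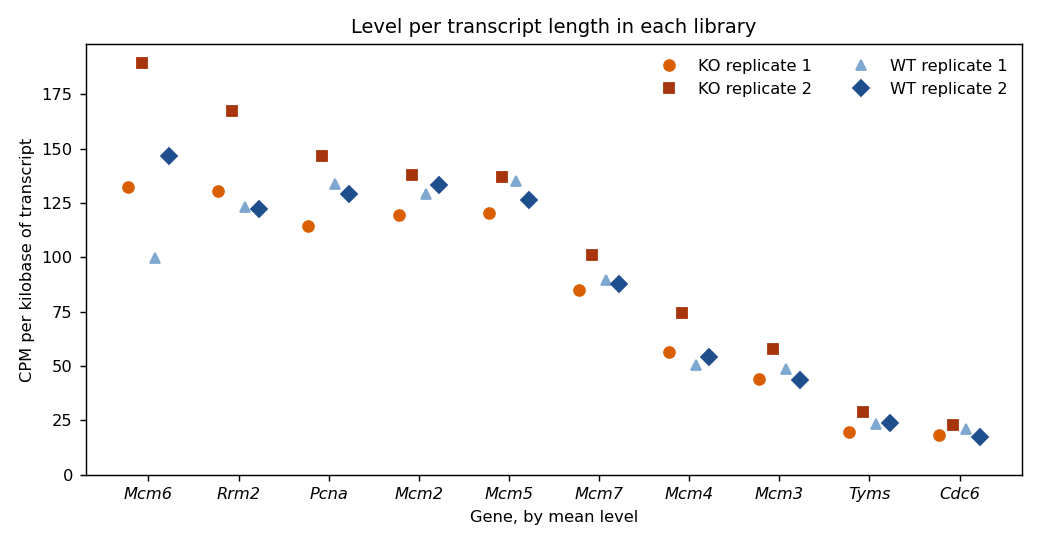
CPM per kilobase of transcript (y axis, from 0) for the 10 genes ordered by mean level (x axis), with 1 point per library. Apart from Mcm6 in WT replicate 1, at 99.7, the points form 4 levels that do not overlap: Mcm6 to Mcm5, Mcm7, Mcm4 with Mcm3, and Tyms with Cdc6.

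Across 5 lists of licensing, fork, nucleotide synthesis, cell cycle entry and mitosis genes, 140 genes were tested. None passed the threshold, 6 were higher and 3 lower in KO at an unadjusted p below 0.05 (all genes tested: 6.29% higher and 3.61% lower), and 84 of 140 fold changes were positive with a median log2 of 0.03. Between the KO mice, 115 of the 140 genes were higher in KO replicate 2, with a median log2 ratio of 0.26. That share was 20 of 23 for licensing and firing, 29 of 33 for the fork, 25 of 32 for nucleotide synthesis, 20 of 30 for cell cycle entry and 21 of 22 for mitosis. Of all genes tested, 49.1% were higher in KO replicate 2 than in KO replicate 1. In WT replicate 2 against WT replicate 1, 94 of 140 were higher, with a median of 0.06. There the counts were 19 of 23 for licensing and firing, 18 of 33 for the fork and 16 of 32 for nucleotide synthesis. They were 21 of 30 for cell cycle entry and 20 of 22 for mitosis, against 49.9% of all genes tested. In licensing, cell cycle entry and mitosis the WT mice thus split about as often as the KO mice.

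Among the 23 licensing and firing genes none had an unadjusted p below 0.05. Wdhd1, a replisome adaptor, had 98.02 and 137 CPM in KO replicates 1 and 2, against 84.3 and 98.5 CPM in WT replicates 1 and 2, with KO replicate 1 below WT replicate 2. Orc2, a subunit of the origin recognition complex, had 86.2 and 78.0 CPM in the KO and 93.2 and 98.6 CPM in the WT libraries. Cdt1, which loads the ring together with Cdc6, had 34.7 and 46.0 CPM in the KO and 34.4 and 32.6 CPM in the WT libraries. Cdc7, the kinase that fires licensed origins, had 99.4 and 138 CPM in the KO and 96.9 and 105 CPM in the WT libraries. The log2 fold changes of these 4 ran between -0.22 (Orc2) and 0.36 (Wdhd1).

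At the fork, 3 of 33 genes were higher and 2 lower at an unadjusted p below 0.05. Timeless, which with Tipin protects the fork, had the largest change, 48.5 and 69.4 CPM in KO replicates 1 and 2, against 32.0 and 34.7 CPM in WT replicates 1 and 2. Both KO libraries exceeded both WT libraries, and the log2 fold change was 0.82 (SE 0.17, edgeR adjusted p = 0.377). Tipin had 100.9 and 124 CPM in the KO and 77.9 and 90.0 CPM in the WT libraries, a log2 fold change of 0.42 (edgeR adjusted p = 0.462). Rfc2, a subunit of the complex that loads Pcna, had 80.2 and 71.1 CPM in the KO and 110.02 and 98.8 CPM in the WT libraries, a log2 fold change of -0.46 (edgeR adjusted p = 0.414). Pold4, the small subunit of polymerase delta, had 12.0 and 11.7 CPM in the KO and 16.9 and 14.9 CPM in the WT libraries, a log2 fold change of -0.42 (edgeR adjusted p = 0.484).

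Of 32 nucleotide synthesis genes, 1 was higher at an unadjusted p below 0.05: Shmt2, the mitochondrial serine hydroxymethyltransferase that supplies one-carbon units. It had 37.8 and 64.0 CPM in KO replicates 1 and 2, against 27.9 and 33.9 CPM in WT replicates 1 and 2, a log2 fold change of 0.72 (SE 0.26, edgeR adjusted p = 0.486). Prps2, which makes phosphoribosyl pyrophosphate, had 517 and 433 CPM in the KO and 563 and 599 CPM in the WT libraries. Ctps2, a CTP synthase, had 79.8 and 76.9 CPM in the KO and 71.9 and 64.0 CPM in the WT libraries. Impdh1, of guanine nucleotide synthesis, had 242 and 179 CPM in the KO and 255 and 253 CPM in the WT libraries. Prps2 and Impdh1 had their lowest value of all libraries in KO replicate 2, where Rrm2 and Tyms had their highest.

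Of 30 genes of cell cycle entry, 2 were higher and 1 lower at an unadjusted p below 0.05. Cdkn1c, a cyclin-dependent kinase inhibitor, had 4.92 and 4.30 CPM in KO replicates 1 and 2, against 8.35 and 10.04 CPM in WT replicates 1 and 2, a log2 fold change of -0.997 (SE 0.21, edgeR adjusted p = 0.377). Its KO libraries were close to each other. Cdkn1a, the inhibitor p21, had 7.06 and 15.2 CPM in the KO and 5.65 and 5.41 CPM in the WT libraries, a log2 fold change of 1.01 (SE 0.35, edgeR adjusted p = 0.475), with most of the difference in KO replicate 2. E2f7, a repressor of E2F targets, had 10.1 and 13.4 CPM in the KO and 7.60 and 7.27 CPM in the WT libraries, a log2 fold change of 0.66 (edgeR adjusted p = 0.439). Cdk6, a G1 kinase, had 87.0 and 146 CPM in the KO and 72.1 and 81.6 CPM in the WT libraries.

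None of the 22 mitosis genes had an unadjusted p below 0.05. Mki67, the proliferation marker, had 2355 and 3121 CPM in KO replicates 1 and 2, against 1940.2 and 2631 CPM in WT replicates 1 and 2, so the groups overlapped. Cdk1, the mitotic kinase, had 191 and 217 CPM in the KO and 227.08 and 227.13 CPM in the WT libraries. Cenpa, the centromeric histone, had 106 and 99.6 CPM in the KO and 118 and 111 CPM in the WT libraries, and Cdc25c, the phosphatase that activates Cdk1, had 25.3 and 29.6 CPM in the KO and 22.6 and 24.5 CPM in the WT libraries.

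**Figure D4:**
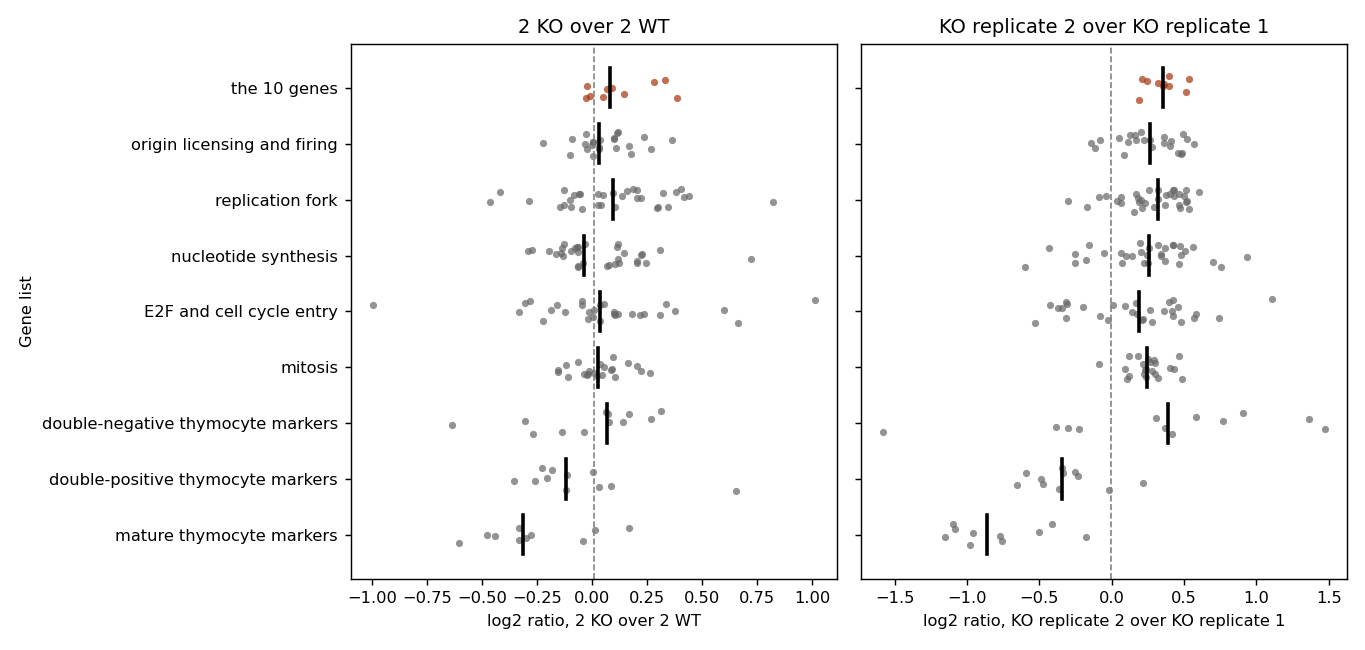
Log2 ratio per gene (x axis) for the 10 genes and 8 lists (y axis), with both KO over both WT libraries on the left and KO replicate 2 over KO replicate 1 on the right; thick bars are list medians and the dashed line is the median of all genes tested. On the left the replication and cell cycle medians lie between -0.04 and 0.09, and on the right the 10 genes have a median of 0.36 against -0.86 for the mature markers.

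The genes whose pattern over the 4 libraries was nearest to the mean pattern of Mcm2 to Mcm7 were Bard1, Gnas, Snx30, Slbp and Rbl1. Likeness was the Euclidean distance between centred log2 CPM values over the 4 libraries, among 4722 genes with a mean of at least 50 CPM. Distances of these 5 were 0.033 to 0.043, whereas the nearest of the 10 genes to the mean, Mcm7, was at 0.12 and the farthest, Mcm6, at 0.45. By that distance Mcm7 ranked 108 and Mcm6 2915 among genes of that level, so many genes outside the 10 lay nearer. Bard1, the partner of Brca1 in DNA repair, had 113 and 137 CPM in KO replicates 1 and 2, against 110.2 and 116 CPM in WT replicates 1 and 2. Gnas had 377 and 456 CPM in the KO and 366 and 390 CPM in the WT libraries. Snx30 had 51.7 and 64.7 CPM in the KO and 52.9 and 54.1 CPM in the WT libraries. Slbp, the stem-loop binding protein of histone mRNA, had 119.7 and 155 CPM in the KO and 120.2 and 129 CPM in the WT libraries. Rbl1, a pocket protein that binds E2F factors, had 195 and 237 CPM in the KO and 194 and 205 CPM in the WT libraries. With 4 libraries, many genes can share such a pattern, and the likeness is a description.

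Reads that cross exon junctions gave a second count from the same libraries. Summed over the known junctions of each gene, 0 of the 10 genes passed the threshold in edgeR's test (3 of 9939 genes, 0.0302%), and 1, Mcm4, had an unadjusted p below 0.05 and was higher in KO (4.91% of all genes). Mcm4 had 351 and 472 junction CPM in KO replicates 1 and 2, against 288 and 327 junction CPM in WT replicates 1 and 2, a log2 fold change of 0.42 (SE 0.17, edgeR adjusted p = 0.501). Mcm6 had a log2 fold change of 0.41 (edgeR adjusted p = 0.636) and Rrm2 of 0.19 (edgeR adjusted p = 0.795). By junction reads the KO and WT libraries of Rrm2 overlapped, whereas those of Mcm4 and Mcm3 did not. For Mcm3 the gap was small, with 231 and 277 junction CPM in the KO and 227.96 and 227.99 in the WT libraries. Its unadjusted p in edgeR's test was 0.332. The share of all genes without overlap was not counted for junction reads, so nothing is read from these overlaps.

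Of the 10 genes, 123 known junctions and 1 putative junction had the 10 reads needed for a test of use within the gene, made against its other junctions by edgeR's diffSpliceDGE. None passed the threshold (4 of 95139 junctions did, 0.0042%), and 2 had an unadjusted p below 0.05, against 2.55% of all junctions. In Mcm7 the junction between positions 138609200 and 138609286 of mm9 chromosome 5 had 51 and 42 reads in KO replicates 1 and 2, against 26 and 50 reads in WT replicates 1 and 2. In Mcm2 the junction between positions 88834858 and 88835838 of mm9 chromosome 6, the 13th of 15 from the 5′ end, had 69 and 100 reads in the KO and 230 and 207 reads in the WT libraries. That was 2.81% and 3.58% of Mcm2 junction reads in the KO and 6.99% and 4.38% in the WT libraries (log2 relative use -0.81, edgeR adjusted p = 0.99999).

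The most uneven junction of the 10 genes across libraries was the last of Mcm2, which joins exon 15 to exon 16 (mm9 chromosome 6, 88834104 to 88834370). The sequence across it is shown from the coding part of the GENCODE M21 transcript (GRCm38), with the bases of exon 16 in capitals.
Mcm2 exon 15 to exon 16: gatctgatggacaagGCCAGGCAGATCAAT
It had 352 and 443 reads in KO replicates 1 and 2, against 113 and 953 reads in WT replicates 1 and 2. As a share of Mcm2 junction reads this was 14.3% (exact Clopper-Pearson 95% interval 13.0 to 15.8%) and 15.9% (14.5 to 17.3%) in the KO libraries, against 3.43% (2.84 to 4.11%) and 20.1% (19.0 to 21.3%) in the WT libraries. The libraries that differed were thus the WT ones, and the KO libraries lay between them. Leaving out WT replicate 2 gave a log2 relative use of 2.14, while leaving out WT replicate 1 turned the direction (log2 relative use -0.41). With all 4 libraries the log2 relative use was 0.32 (edgeR adjusted p = 0.99999). WT replicate 1 is also the library with the highest share of reads from small RNA and host genes, and any part of that in the junction counts was not tested.

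Pcna stood apart in the number of its junction reads, at 93.5% of its gene reads, whereas the other 9 genes had 15.8 to 29.3% and the median gene 10.6%. The first junction, from exon 1 to exon 2 (mm9 chromosome 2, 132077736 to 132078552), held 17099 of 22982 known-junction reads, or 74.4%. The coding sequence across it, from GENCODE M21, has the bases of exon 2 in capitals.
Pcna exon 1 to exon 2: cgtgaacctcaccagCATGTCCAAAATTCT
Its share was 76.0% and 72.8% in KO replicates 1 and 2 and 75.1% and 73.9% in WT replicates 1 and 2, so it did not separate the groups. Without that junction, the other 4 had 25.9% and 22.1% of the gene reads in the KO and 23.6% and 24.5% in the WT libraries, within the range of the other genes. In KO replicate 1 the junction reads of Pcna came to 108% of the gene reads; how a read at a junction entered each table was not tested.

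**Figure D5:**
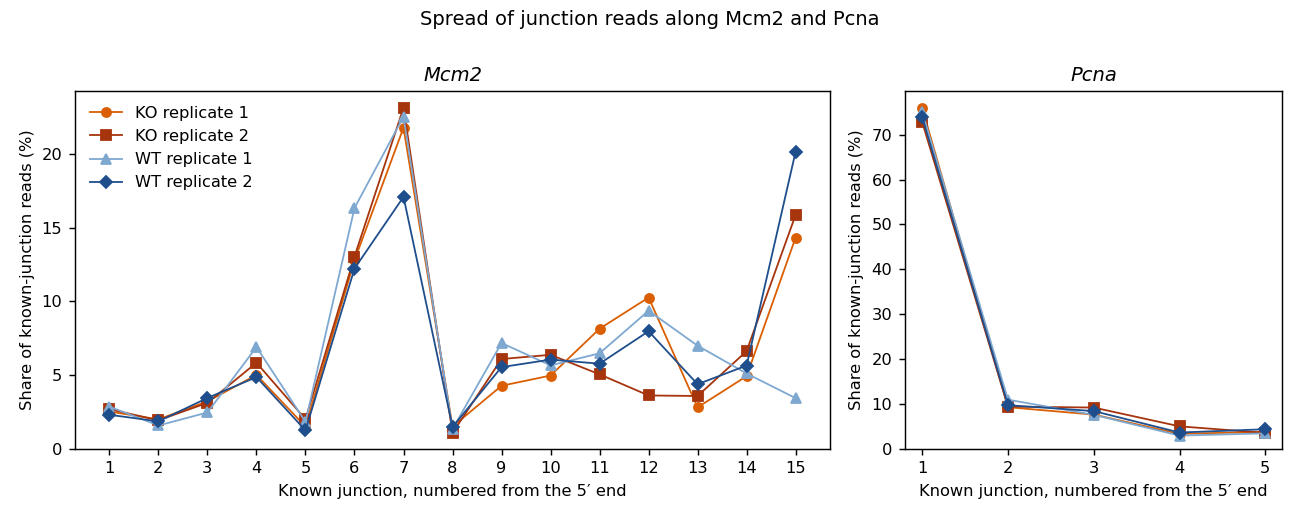
Share of known-junction reads (y axis, percent, from 0) at each junction numbered from the 5′ end (x axis) in Mcm2 (left) and Pcna (right), 1 line per library. At the last Mcm2 junction WT replicate 1 lies at 3.43% and the other 3 libraries at 14.3 to 20.1%, while the 4 Pcna lines nearly coincide, with 74.4% of reads at the first junction.

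Tyms is the one of the 10 genes with 2 known acceptors for the same donor. They lie 10 bases apart, at positions 30388589 and 30388579 of mm9 chromosome 5, with the donor at 30389776. The exon sequences that result are shown from GENCODE M21 transcripts, the upstream form from a transcript annotated for nonsense-mediated decay, with the 10 additional bases in capitals.
Tyms main acceptor: aggcctgcagccaggtgatt
Tyms upstream acceptor: aggcctgcagACATTTTTAGccaggtgatt
The upstream acceptor took 3 of 80 and 7 of 113 reads in KO replicates 1 and 2, against 9 of 170 and 6 of 164 reads in WT replicates 1 and 2. Its share averaged 4.97 ± 1.73% in KO and 4.48 ± 1.16% in WT libraries (SD, n = 2 each), a difference smaller than the spread between replicates. The exact 95% intervals of the single libraries ran from 0.780 to 12.3%.

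Junctions that the tables mark as putative were rare in these genes. Of 95431 junction reads of the 10 genes, 127 (0.133%, exact 95% interval 0.111 to 0.158%) crossed a putative junction. Of all junction reads, taken without regard to gene, 1.16% did so. The shares were 0.152% and 0.135% in KO replicates 1 and 2 and 0.124% and 0.128% in WT replicates 1 and 2, with overlapping intervals. Of the 75 putative junctions with a read, 61 had a single read, and 1 reached 10 reads. That junction joins exon 3 of Mcm2 to exon 7 (mm9 chromosome 6, 88839916 to 88843332) and leaves out 689 bases, which is not a multiple of the codon length.
Mcm2 skipping junction: gggggctgctctatgACCATCTATCAGAAC
The bases of exon 7 are in capitals, in coding sequence from GENCODE M21. It had 2 and 1 reads in KO replicates 1 and 2, against 3 and 9 reads in WT replicates 1 and 2, at most 2.37% in any library of the skipping reads plus the mean of the flanking inclusion reads. A junction skipping exon 3 of Tyms, chosen after its values were seen, had 3 and 3 reads in the KO and 3 and 0 reads in the WT libraries. At these counts no difference in exon skipping of the 10 genes was detectable.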

How the data were processed

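The members and the lists were chosen with earlier results of these data known. The authors deposited raw read counts per RefSeq transcript, with a reads-per-base signal and RPKM, and raw counts per exon junction. Per the file headers, only alignments of mapping quality 10 or more were counted; per the submitters' processing notes the build is mm9. The aligner, strand handling and which libraries shared a slide were not given in the sources used here. Per the labels' protocols, libraries were made from rRNA-depleted RNA in fragments of 150 to 300 bp with 12 PCR cycles. The deposited RPKM and signal matched the counts and entered no test. Mapped reads were 69061265 and 75485061 in KO and 99782558 and 122619310 in WT replicates 1 and 2. A single transcript per gene, the one with the most reads, was kept. Counts were tested with edgeR 4.0.16 (R 4.3.3; TMM, filterByExpr, robust quasi-likelihood fit, Benjamini-Hochberg over all genes, threshold 0.05). Junctions needed 10 reads over the 4 libraries in a gene with 2 or more such junctions. DESeq2 1.42.0 and limma 3.58.1 were alternatives, and the tests were tried on simulated data. Besides the members, the text names the 4 genes of smallest p per pathway list, the 2 most abundant genes per marker list (those of the B cell and myeloid lists only as sums) and the 5 genes nearest to Mcm2 to Mcm7. Rag2 was named after its values were seen. Intervals of junction shares cover counting error only; those of fold changes come from the edgeR fit and include the spread between mice. P-values weigh the group difference against a spread between mice, estimated from 2 mice per group and moderated across genes.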

Additional observations from a re-analysis of the deposited data

How the results depend on the processing

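The number of the 10 genes called was 0 under every alternative run, for gene reads and for junction reads, including DESeq2, limma-voom and each library left out. The number of all genes called, 1 in edgeR with TMM, was 0 with upper-quartile scaling, with limma-voom, without robust moderation and with transcripts summed, 3 without small RNA genes, 62 with no filter on low counts, 113 in DESeq2 and 2 to 427 with 1 library left out. Upper-quartile scaling reversed fold changes near 0, giving 0.025 for Mcm2, 0.032 for Mcm5 and 0.044 for Pcna, and moved the median of all genes to 0.06. With 1 library left out, log2 fold changes ranged from -0.136 to 0.064 for Mcm2, -0.068 to 0.320 for Mcm3, -0.119 to 0.061 for Mcm5, -0.060 to 0.180 for Mcm7, -0.079 to 0.234 for Cdc6, -0.20 to 0.15 for Pcna and -0.24 to 0.29 for Tyms, all changing sign, while they stayed positive for Mcm4 (0.12 to 0.51), Mcm6 (0.11 to 0.70) and Rrm2 (0.09 to 0.44). Why these values moved was not tested. The 4 junctions called overall became 1 with limma-voom, 10 with a replicate block and 3 to 12 with 1 library left out, and 0 to 1 of the junctions of the 10 genes was then called. Replicate numbers are not known to pair the mice: deviations of KO replicate 1 and WT replicate 1 from their group means correlated at 0.26 across genes, over 2 pairs. With the replicate number as a block, 121 genes were called and 0 of the 10. In that run Mcm4 and Mcm6 had an unadjusted p below 0.05 in edgeR's test. Mcm4 alone of the 10 did so with upper-quartile scaling and with no filter on low counts. None of the 10 did so without robust moderation, with transcripts summed or without small RNA genes. Runs with 1 library left out leave 1 group with 1 library. Neither their p-values, adjusted or unadjusted, nor their numbers of genes or junctions called are therefore read here. Depth limits junction shares to the intervals given, and 2 libraries per group limit the gene results.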

Other observations

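Among the neighbours of the genes, 3 miRNA genes lie within the 13th intron of Mcm7 in the direction of its transcription, Mir106b, Mir93 and Mir25 (mm9 chromosome 5, between 138606549 and 138607046). Their mature forms are shown from RefSeq (GRCm38.p6) with the seed, bases 2 to 8, in capitals.
mmu-miR-106b-5p: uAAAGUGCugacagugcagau
mmu-miR-93-5p: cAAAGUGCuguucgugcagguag
mmu-miR-25-3p: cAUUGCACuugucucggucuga
The first pair share the seed AAAGUGC and miR-25 has another. The hairpin of Mir25 had 15 and 6 reads in KO replicates 1 and 2, against 74 and 25 reads in WT replicates 1 and 2. Mir93 had 9 and 2 reads in the KO and 65 and 8 reads in the WT libraries, and Mir106b had 0 and 0 reads in the KO and 18 and 1 reads in the WT libraries. WT replicate 1 had the most reads for each of the 3, and it is the library with the largest share of reads from small RNA and host genes, 8.21%; the part of that share was not tested. Mir25 and Mir93 were tested and had edgeR adjusted p-values of 0.515 and 0.604.

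Prkdc, the catalytic subunit of the DNA-dependent protein kinase, starts 466 bases from the start of Mcm4 on the opposite strand. It had 202 and 211 CPM in KO replicates 1 and 2, against 192 and 175 CPM in WT replicates 1 and 2, a log2 fold change of 0.17 (edgeR adjusted p = 0.614). Both KO libraries lay above both WT libraries, as in Mcm4 and in 23.3% of all genes tested.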
